A study of Mus musculus with 4 samples.

Results

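Interferon-induced effector genes make the proteins with which a cell meets a virus or an intracellular microbe, and their CpG methylation is described here in hippocampal microglia, the resident immune cells of that brain region. The members are all autosomal protein-coding genes whose symbol starts with Ifit, Ifitm, Ifi2, Ifi4, Oas, Gbp, Irgm, Iigp or Rsad2, or is Mx1, Mx2, Isg15, Isg20, Usp18, Bst2 or Zbp1. Of 66 mouse symbols that met the naming rule in the RefSeq table, 60 were protein-coding, out of 20665 autosomal protein-coding genes. The other 6 (Gbp11, Gbp2-ps, Ifi203-ps, Mx1, Mx2 and Oas1b) have another gene type in that table and were left out. The 60 members comprise 6 Ifit, 7 Ifitm, 14 Ifi2, 3 Ifi4, 11 Oas, 10 Gbp, 3 Irgm and Iigp genes and 6 single genes. They lie in clusters on a few chromosomes, with 16 on chromosome 5, 11 on chromosome 1, 7 each on chromosomes 3 and 7 and 6 on chromosome 19.

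Whole-genome bisulfite sequencing, which reads methylated cytosines as C and unmethylated ones as T, had been run on 2 libraries labelled FGR and 2 labelled Ctrl, in a study of growth restriction before birth. All 4 libraries came from mice heterozygous for a Tmem119-tdTomato reporter allele, at week 3 after birth, so the FGR mice and the control mice share that genotype and age. The labels tell neither how growth was restricted nor whether a library holds 1 animal or several, so every p-value measures only the spread between these libraries. The question of the comparison is how the methylation of microglial DNA differs between FGR and control mice.

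Interferons bind receptors that signal through JAK kinases to STAT transcription factors. Type I interferon activates a complex that binds the interferon-stimulated response element (ISRE), and interferon gamma activates factors that bind gamma-activated sites (GAS). The effector genes near these elements are kept low in resting cells and are induced strongly, in microglia as in other cells. Methylation of CpGs near a gene start is in general low at active or inducible promoters with many CpGs and high at silent starts with few.

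The tables listed 7615146 and 13578464 cytosines in the FGR libraries and 9335713 and 10023353 in the control libraries, with a summed coverage of 49563150 and 91762720 reads against 62202250 and 66971740 reads. Only cytosines with at least 5 reads are listed, and the mean coverage was 6.51 to 6.76 reads. The libraries therefore share few CpGs, and 8.89% of the 15954515 autosomal CpGs kept in any library were listed in all 4. The autosomal methylation level, meaning methylated reads over all reads, was 74.6% and 75.6% in the FGR libraries and 76.0% and 76.4% in the control libraries, a difference of -1.05 percentage points (2-sided exact permutation test, p = 0.333, the smallest that 6 assignments can give). On the CpGs listed in all 4 libraries that difference was -0.386 points. Starts of the microglial genes Sall1, P2ry12 and Cx3cr1 were near unmethylated, with means over the 4 libraries of 0% to 3.04%. Gene ends measured for the microglial genes Csf1r and Tmem119, whose start was not in the promoter table, averaged 21.2% to 57.8%. The T and B cell genes Cd3e and Cd79a averaged 80.8% and 82.7% at their starts, and the monocyte and macrophage genes Ccr2 and Cd163 averaged 90.5% and 90.7%. The other measured starts of monocyte and macrophage genes were lower, at 72.3% for Ms4a7, 19.4% for Pf4 and 7.83% for Mrc1. Over whole marker lists, measured starts had a median of 72.3% (7.83% to 90.7%, 5 genes) for border macrophages and monocytes, 41.3% (2.06% to 85.1%, 5 genes) for neurons and 2.47% (0% to 3.04%, 3 genes) for microglia. Those of oligodendrocytes were at 6.11% and 56.2%, those of astrocytes at 8.75% and 10.1%, and those of endothelial cells at 4.56% and 24.3%.

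The 250 bases before the annotated start, taken from RefSeq promoters of build GRCm38.p6, the same genome as mm10, were at hand for 45 of the 60 members. An ISRE-type motif, here GAAA followed after any 2 bases by another GAAA, on either strand and with overlapping matches counted, lay in 27 of the 45 members (60%), against 500 of 16457 genes (3.04%). In all there were 39 matches, and 11 members held 2 or more. Overlapping runs such as those of Bst2, Irgm1 and Isg15 count as several matches. Ifit1 and Ifit1bl2 start close to each other on opposite strands, and the same pair of motifs is counted for both. A GAS-type motif, TTCNNNGAA on either strand, lay in 9 members (20%), against 1110 genes (6.74%). The member promoters held few CpGs, with a median of 2 in the 250 bases against 10 over all genes, and 36 of 45 members (80%) held 5 or fewer, against 36.6% of all genes. A match describes letters only and does not show that a factor binds.

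The sequences below show the motif beside the few CpGs whose methylation could be read. They come from the 6 well-known effectors with a motif and enough CpGs and reads within 1 kb of the start in every library. They are ordered from the lowest to the highest methylation level there. Gbp2, Gbp3, Ifit3, Isg15 and Oas1a also had a motif, but too few CpGs or reads there in some library. Each sequence runs 5′ to 3′ toward the gene start with the motif in capitals. Irgm1 lies at chr11:48871421-48871670 on the minus strand, Rsad2 at chr12:26456453-26456702 (minus), Gbp5 at chr3:142496684-142496933 (plus), Bst2 at chr8:71537473-71537722 (minus), Ifitm2 at chr7:140955962-140956211 (minus) and Ifit1 at chr19:34640639-34640888 (plus).
Irgm1: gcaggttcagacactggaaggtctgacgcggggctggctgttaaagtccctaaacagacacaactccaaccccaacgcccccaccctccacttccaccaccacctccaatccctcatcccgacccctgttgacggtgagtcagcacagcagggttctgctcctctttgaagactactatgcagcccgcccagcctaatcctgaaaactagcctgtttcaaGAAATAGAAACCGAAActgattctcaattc
Rsad2: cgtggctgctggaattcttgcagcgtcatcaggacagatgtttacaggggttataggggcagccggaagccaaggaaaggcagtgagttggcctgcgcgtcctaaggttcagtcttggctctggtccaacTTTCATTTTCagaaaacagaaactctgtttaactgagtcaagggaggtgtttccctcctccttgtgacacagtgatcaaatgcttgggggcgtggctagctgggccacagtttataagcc
Gbp5: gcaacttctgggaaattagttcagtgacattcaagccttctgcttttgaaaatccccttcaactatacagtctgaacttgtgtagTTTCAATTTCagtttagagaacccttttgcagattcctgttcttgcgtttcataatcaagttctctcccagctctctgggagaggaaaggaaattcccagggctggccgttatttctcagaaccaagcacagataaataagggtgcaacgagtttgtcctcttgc
Bst2: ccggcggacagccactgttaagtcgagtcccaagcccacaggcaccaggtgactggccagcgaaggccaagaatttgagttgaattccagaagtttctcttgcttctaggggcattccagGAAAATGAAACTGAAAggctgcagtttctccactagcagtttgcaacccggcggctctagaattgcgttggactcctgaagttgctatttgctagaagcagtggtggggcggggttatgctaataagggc
Ifitm2: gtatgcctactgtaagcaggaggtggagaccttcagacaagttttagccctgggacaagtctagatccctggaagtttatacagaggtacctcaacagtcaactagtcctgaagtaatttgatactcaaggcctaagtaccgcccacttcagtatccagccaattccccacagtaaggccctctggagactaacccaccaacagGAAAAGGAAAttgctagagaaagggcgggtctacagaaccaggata
Ifit1: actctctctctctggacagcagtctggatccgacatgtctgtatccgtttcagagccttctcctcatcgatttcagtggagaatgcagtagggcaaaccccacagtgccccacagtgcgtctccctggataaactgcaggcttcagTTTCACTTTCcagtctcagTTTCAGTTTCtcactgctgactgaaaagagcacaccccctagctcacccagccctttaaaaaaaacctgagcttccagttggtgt

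Of the 147 CpGs in the 45 member sequences, 117 (79.6%) were listed in at least 1 library and 13 in all 4, so single CpGs of these promoters were read from few reads. Positions are counted back from the start, which is taken as 0. In the Irgm1 sequence, 4 of 7 CpGs were listed and none of 25 reads was methylated, which allows a level of up to 12%. One of these CpGs, at position -19, lies inside the motif and was read by 5 reads of FGR replicate 1 alone. In the Gbp5 sequence, none of 36 reads on its 3 CpGs was methylated, which allows up to 8.33%. In the Bst2 sequence, 1 of 67 reads on 7 CpGs was methylated (1.49%, Wilson 95% interval 0.264% to 7.98%). Intervals and limits of this kind cover counting error only.

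Rsad2, which encodes viperin, an enzyme that makes a chain-terminating nucleotide, was the only one of these 6 with CpGs listed in all 4 libraries. Its 6 CpGs together stood at 33.3% and 5.66% in the FGR libraries and 20% and 5.66% in the control libraries. The CpG at position -227 carried 12 of the 20 methylated reads, with 55.6% and 20% in the FGR libraries and 40% and 33.3% in the control libraries. The Ifit1 sequence, read in FGR replicate 2 and control replicate 2 only, stood at 14.8% and 6.25%, both low. The only listed CpG of the Ifitm2 sequence, at position -110, was methylated in 85.7% of 7 reads in FGR replicate 2 and 66.7% of 6 reads in control replicate 2.

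Of the 8 motifs with a CpG inside them, in as many genes, 7 had that CpG listed in some library. At Ifi207, a member of the p200 family of DNA-binding proteins, none of the 14 and 7 reads of the FGR libraries and none of 5 reads of control replicate 2 was methylated. At the p200 gene Ifi214 the motif CpG was mostly methylated, at 80% and 85.7% in the FGR libraries and 80% and 100% in the control libraries, from 5 to 7 reads each. At Ifi213 it stood at 69.2% of 13 reads in FGR replicate 2 and 0% of 6 reads in control replicate 2. The motif CpG of Isg15 was unmethylated in 7 reads of control replicate 1, and those of Ifi206 and Oas3 were methylated in 20% of 5 and 14.3% of 7 reads of FGR replicate 1.

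With the reads of the 4 libraries summed, 34 members had at least 10 reads in the 250 bases, and 20 of them (58.8%) were below 20% methylation, against 66.5% of 11439 genes. Genes with few CpGs there are mostly methylated, so members were also set beside genes of like CpG number. Among genes with a single CpG, 4 of 8 members (50%) were below 20%, against 10.2% of 908 genes. With 2 to 5 CpGs, 8 of 17 members (47.1%) were below 20%, against 23.2% of 2838 genes. Ifit1bl2, with a single CpG, and Ifit1, in this class, are both below 20% and share that CpG and its reads. With 6 to 10 CpGs, 7 of 8 members (87.5%) were, against 69.1% of 2021 genes. Members with few CpGs are thus split, since Ifi202b at 90.9%, Oasl2 at 90% and Oas1f at 77.8% stood at the other end, and 11 of the 34 were above 50%.

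Over the wider window of 1 kb on each side of the start, member starts were more methylated than starts in general, and they differed widely among themselves. A window was measured where every library had at least 3 CpGs and 10 reads, which 29 of the 45 start windows reached. For the 15 members with no entry in the promoter table, both gene ends were measured instead, and 13 of 30 ends passed. In total 39 genes had a measured window or end and 21 had none. The mean level over the 4 libraries ran from 3.19% to 95.2% over the 29 start windows, with a median of 61.3% against 29.3% over 11658 gene starts. Only 8 of the 29 (27.6%) were below 30%, against 50.8% of all starts.

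The least methylated start was that of Irgm1, an immunity-related GTPase that regulates its relatives on vacuoles and organelles. Irgm1 had 3.80% and 4.61% in the FGR libraries, against 0% and 4.35% in the control libraries, over chr11:48870420-48872420. Its relative Irgm2 had 20% and 11.4% in the FGR libraries and 12.9% and 16.3% in the control libraries. Both are low in all 4 libraries, and their groups overlap.

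Isg20, an exonuclease that degrades RNA, came after them, with 29.3% and 24.6% in the FGR libraries and 15.4% and 15.2% in the control libraries. It was the only measured member window in which both FGR libraries lay above both controls, with 1 of 42 against 14.7% of 17481 windows and ends. Its difference of 11.6 points had an adjusted p of 0.887 in the quasi-binomial fit with Benjamini-Hochberg adjustment. On the CpGs listed in at least 1 library of each group it was -3.87 points.

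Rsad2 followed, with 30.3% and 15.9% in the FGR libraries and 31.4% and 11.4% in the control libraries. The replicate 1 library of each group was the higher one. Gbp7, a guanylate-binding protein that attacks pathogen-containing vacuoles, showed the same order, with 28.4% and 15.3% in the FGR libraries and 45.3% and 9.01% in the control libraries. Bst2, or tetherin, which holds budding virus at the cell surface, had 15.2% and 44.2% in the FGR libraries and 18.4% and 41.3% in the control libraries. In Bst2 the replicate 2 libraries were the higher ones, and the groups of all these genes overlap.

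Gbp5, a guanylate-binding protein with a role in inflammasome activation, had 36.2% and 15.3% at its start in the FGR libraries and 32.1% and 34.1% in the control libraries. Ifit2, which belongs to the proteins that bind viral RNA and block its translation, had 24.1% and 24.1% in the FGR libraries and 27.9% and 36.4% in the control libraries. The end of Usp18 at the lower coordinate, which is the end of the protease that removes ISG15 from proteins and damps the interferon receptor, had 10.3% and 11.6% in the FGR libraries and 29.4% and 12.4% in the control libraries. In Ifit2 and Usp18 both FGR libraries lie below both controls, and in Usp18 control replicate 1 alone stands apart. Both turned direction on the CpGs listed in both groups, with differences of 5.17 points at Ifit2 and 0.892 points at Usp18.

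Ifitm5, which acts in bone mineralisation and not in virus restriction, was the most methylated start, with 95.6% and 94.5% in the FGR libraries and 94.0% and 96.9% in the control libraries. Ifi202b, a p200 protein that inhibits the DNA sensor AIM2, had 100% and 87.6% in the FGR libraries and 93.5% and 88.5% in the control libraries. The starts of Ifi44l, Gbp2b, Ifitm6, Oas3 and Ifi205 had means of 73.7% to 79.2%.

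**Figure D1:**
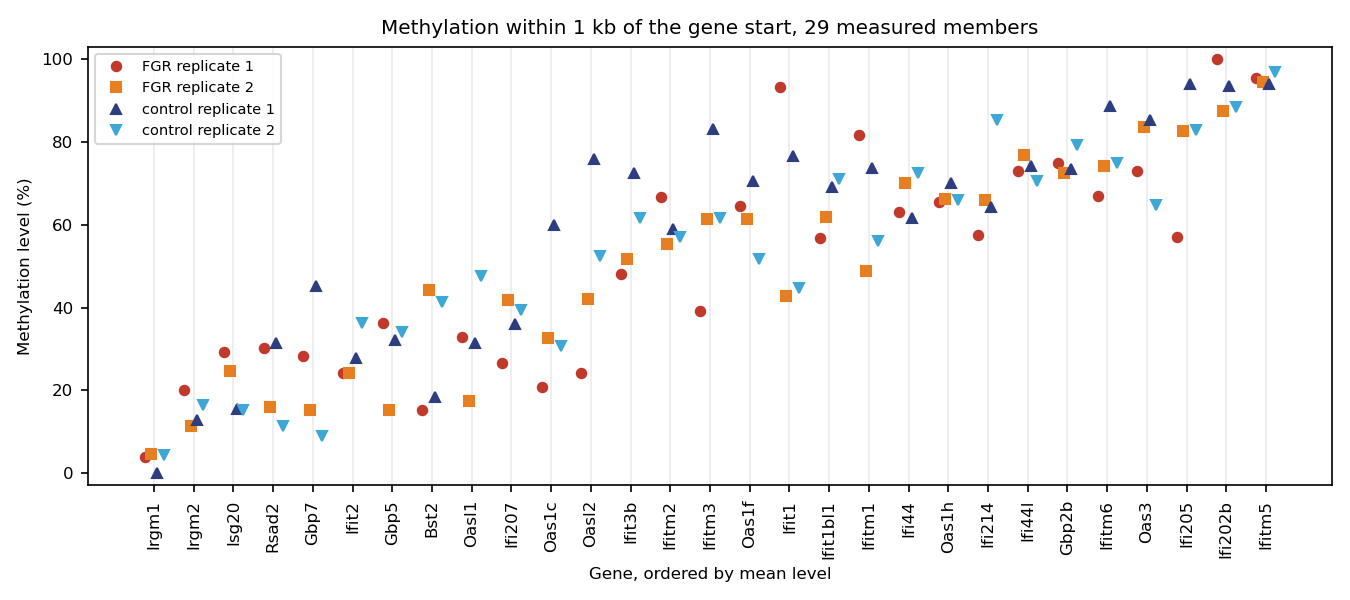
Methylation level within 1 kb of the annotated start (y axis, percent) of the 29 measured members (x axis, ordered by mean level); each point is 1 library, with FGR libraries as red circles and orange squares and control libraries as dark and light blue triangles. Levels run from 3.19% (Irgm1) to 95.2% (Ifitm5), and the libraries of the 2 groups overlap at most starts.

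The CpG content of the start and its methylation went together. Over the 29 measured member starts the mean level correlated with the number of CpGs in the 250 bases before the start at r = -0.523 (Spearman's rho -0.431), against r = -0.613 (rho -0.650) over 11658 genes. These correlations run across genes of the same 4 libraries, so they are descriptions. Members with 6 to 10 CpGs had a median of 28.9% (8 members, against 31.4% over all such genes), those with 2 to 5 CpGs 64.4% (13 members, against 69.3%) and those with 0 or 1 CpG 65.9% (8 members, against 70.4%). Over this window Isg20 with 1 CpG, Gbp5 with 3 and Gbp7 with 5 were low for their CpG number, and Ifitm5 with 6 was high. The single CpG of the Isg20 sequence, at position -139, was itself methylated in 10 of 17 reads (58.8%). Genes with 1 CpG had a median of 63.6% in the 250 bases. Members with an ISRE-type motif had a median window level of 47.3% (16 members) and those without one 65.2% (13 members), a difference that was not tested.

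**Figure D2:**
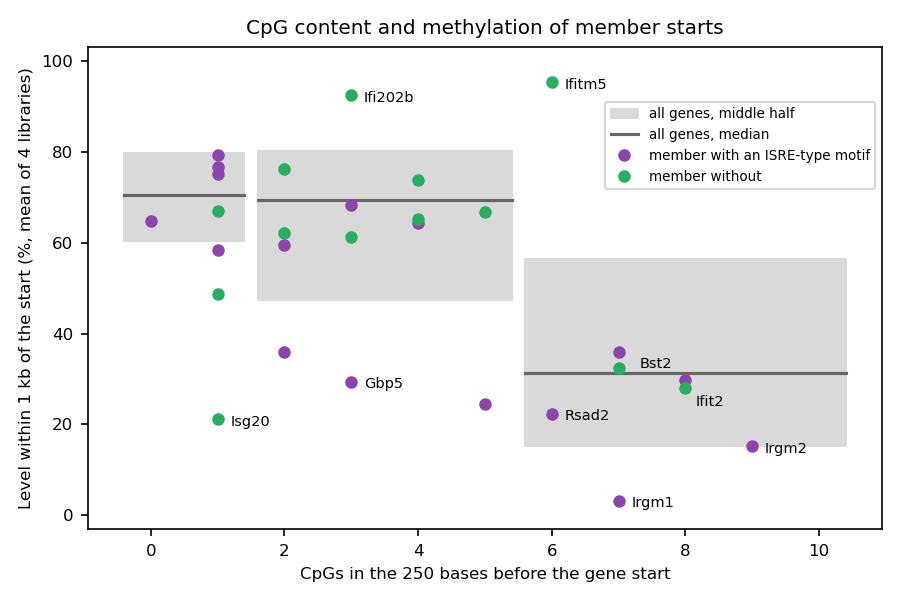
Mean methylation level within 1 kb of the start over 4 libraries (y axis, percent) against the number of CpGs in the 250 bases before the start (x axis) for the 29 measured members, purple with and green without an ISRE-type motif. Grey boxes and lines show the quartile range and median of all genes in the same CpG class; members with 6 or more CpGs lie between 3.19% (Irgm1) and 36.0% (Oas1c), except Ifitm5 at 95.2%.

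No member window or end was called different between FGR and control mice. The quasi-binomial fit, with calls at an adjusted p under 0.05 and at least 10 points, called 0 of 42 member windows and ends and 0 of 17481 in all (0%). At an unadjusted p under 0.05 there were 0 of 42 member windows, against 6.14% of all, and limma on log2 ratios also called 0, with 0 of 42 members under that level against 5.21% of all. The FGR mean was lower in 27 of 42 member windows, against 53.8% of all, and the 2 FGR libraries were the lowest 2 of the 4 in 9 of 42, against 19.1% of all. The median difference of the 42 was -2.46 points, against -0.722 over all windows and ends. Without FGR replicate 1 it was -5.88 points (all windows -0.383), without control replicate 1 -3.85 points (-0.698), and without FGR replicate 2 -1.42 points, no lower than all windows at -1.54. With reads pooled over the CpGs listed in both groups, 31 of 42 member windows were lower in FGR, against 50.1% of all, with a median of -2.41 points against -0.0381.

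The 3 member windows with the smallest p among those lower in FGR belonged to the virus-RNA-binding protein Ifit3b, the p200 protein Ifi205 and the synthetase-like protein Oasl2. Ifit3b had 48.1% and 51.6% in the FGR libraries, against 72.4% and 61.6% in the control libraries. Ifi205 had 57.1% and 82.6% in the FGR libraries, against 94.1% and 82.9% in the control libraries. Oasl2, which binds nucleic acid and modulates its sensing, had 24.2% and 42.0% in the FGR libraries, against 76.0% and 52.4% in the control libraries. In all 3 both FGR libraries are the lower ones, by a hair in Ifi205, as in 19.1% of all windows and ends. The 3 were picked for a small p, which favours such a separation. Their differences were -17.1, -18.6 and -31.1 points, and their adjusted p-values 0.865, 0.867 and 0.874. On the CpGs listed in both groups the differences were -16.1, -13.6 and -18.2 points.

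Ifitm3, which blocks virus entry at the endosome, had a larger difference than Ifit3b and Ifi205 at its start but also a larger p, with 39.2% and 61.3% in the FGR libraries and 83.2% and 61.5% in the control libraries (adjusted p = 0.897). FGR replicate 1 and control replicate 1 make that gap, while the replicate 2 libraries were alike. On the CpGs listed in both groups the Ifitm3 difference was -16.6 points. Among windows higher in FGR, Isg20 had the smallest p, followed by Ifitm1 (81.8% and 48.9% in the FGR libraries, 73.8% and 56.2% in the control libraries) and the lower-coordinate end of Ifi204 (88.9% and 84.8%, against 76.0% and 88.0%). The groups of Ifitm1 and Ifi204 overlap.

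Pooled over the 45 start windows, the members stood at 45.6% and 47.1% in the FGR libraries and 56.9% and 50.8% in the control libraries. That is a difference of -7.45 points, and both FGR libraries are lower. Start windows of the other genes stood at 27.03% and 33.0% in the FGR libraries and 32.6% and 34.5% in the control libraries, a difference of -3.55 points. On the 55 CpGs of member start windows listed in all 4 libraries, the starts had 60.8% and 55.9% in the FGR libraries and 63.0% and 66.1% in the control libraries, a difference of -6.16 points, against -0.916 points for the other genes. Of the marker windows and ends of other cell types, 0 were called. The FGR mean was higher in 4 of 4 for oligodendrocytes (median difference 19.4 points, with both ends of Mbp counted) and 3 of 3 for astrocytes (6.68 points). It was higher in 5 of 6 for border macrophages and monocytes (7.45 points) and 5 of 7 for neurons. For endothelial cells the count was 2 of 3, for lymphocytes 2 of 5 and for the microglial markers 2 of 7. Over all windows and ends the FGR mean was higher in 8058 of 17481. Pooled, the oligodendrocyte windows had 65.9% and 43.5% in the FGR libraries and 41.0% and 52.0% in the control libraries. The astrocyte windows had 27.6% and 32.4% in the FGR libraries and 26.4% and 10.8% in the control libraries, and the border macrophage and monocyte windows 51.9% and 53.2% against 43.0% and 56.2%. Their part in the members' values was not tested. No p-value is given for these sums, since the members were chosen by hand.

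With the start windows of each family pooled, the Ifit starts showed the tightest replicates among the families. They had 46.5% and 46.7% in the FGR libraries and 61.1% and 61.6% in the control libraries. Single Ifit starts were not all that even. Replicates were alike at Ifit2 in the FGR libraries (24.1% and 24.1%). The start of Ifit1 had 93.3% and 42.9% in the FGR libraries and 76.7% and 44.7% in the control libraries. On their 11 shared CpGs the Ifit starts had 51.3% and 51.7% in the FGR libraries and 64.5% and 58.9% in the control libraries. Ifit3, Ifit1bl1 and Ifit3b had 12.5, 9.40 and 8.99 reads per listed CpG, where the median over all genes was 7.01 and 0.401% of genes were above 10. Near-identical Ifit copies can share reads, and the assignment of reads among them is uncertain. The part of shared reads in these values was not tested. The starts of the single genes were higher in FGR, with 29.4% and 43.7% in the FGR libraries and 28.7% and 23.6% in the control libraries, though by only 0.225 points on their 5 shared CpGs. The Irgm starts were low in both groups, at 10.4% and 7.97% against 7.02% and 11.6%.

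**Figure D3:**
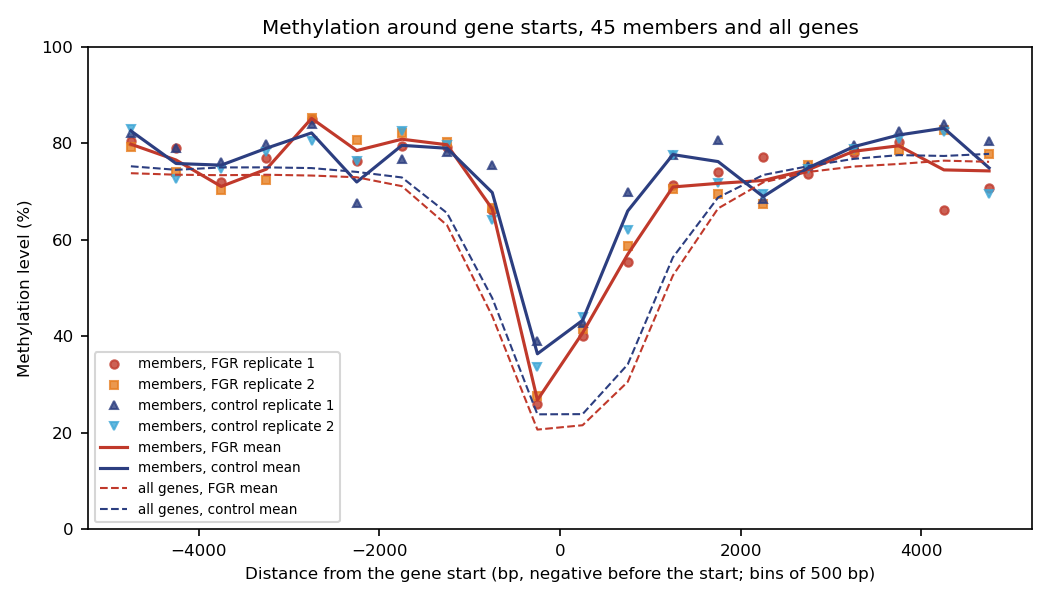
Methylation level (y axis, percent) in bins of 500 bp by distance from the gene start (x axis, bp), for 45 members (points are libraries, solid lines group means) and for all genes (dashed lines), FGR in red and control in blue. Members have a narrower and shallower dip than all genes, lowest in the 500 bp before the start.

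The dip at member starts was centred on the 500 bp before the start. There the members stood at 26.0% and 27.5% in the FGR libraries and 39.0% and 33.7% in the control libraries, while all genes stood at 18.6% and 22.7% against 23.0% and 24.6%. In the 500 bp after the start the members were at 40% and 41.4% in the FGR libraries and 42.7% and 43.9% in the control libraries. Between 500 and 1000 bp after the start they were already at 55.4% and 58.6% in the FGR libraries and 70% and 62.0% in the control libraries, where all genes were at 28.3% and 32.8% against 33.7% and 34.6%. The low stretch of member starts is thus short.

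Across whole genes, taken from 2 kb before to 2 kb after the annotated span, the members were as methylated as genes in general. All 60 spans were measured, with 55 to 3254 reads per library (median 389.5), and their mean levels ran from 57.5% to 87.4% with a median of 74.8%, against 74.0% over 20219 genes. Wilson 95% half-widths for a span in 1 library had a median of 4.203 points and for a window 10.2 points. Because of neighbouring genes, 14 members share part of their span with another member, in 11 pairs, and these are not independent.

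The quasi-binomial fit called 0 of 60 member spans and 0 of 20219 spans in all (0%). At an unadjusted p under 0.05 there were 0 of 60 member spans, against 6.39% of all, while limma on log2 ratios called 0 and had 2 members at that level, against 6.25% of all. The FGR mean was lower in 45 of 60 member spans, against 63.8% of all. Both FGR libraries lay below both controls in 12 (26.2% of all) and above them in 4 (10.4% of all). The median difference was -1.95 points, against -1.26 over all genes. That order turned when 1 library was left out, with -1.28 points for members and -1.78 for all genes without FGR replicate 2, and -1.16 and -1.63 points without control replicate 1.

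On the CpGs listed in all 4 libraries, where 51 member spans could be measured, the members stood near the background. There 27 of 51 were lower in FGR, against 54.2% of all, and the median difference was -0.168 points, against -0.304 over 16652 genes. That fit called 0 of 51 member spans and 1 span in all (0.00601%), with 0 of 51 members and 5.42% of all spans under an unadjusted 0.05. With reads pooled over CpGs listed in at least 1 library of each group, 44 of 60 member spans were lower in FGR, against 58.3% of all, with a median of -1.74 points against -0.451. The direction of many members therefore depends on which CpGs are compared.

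**Figure D4:**
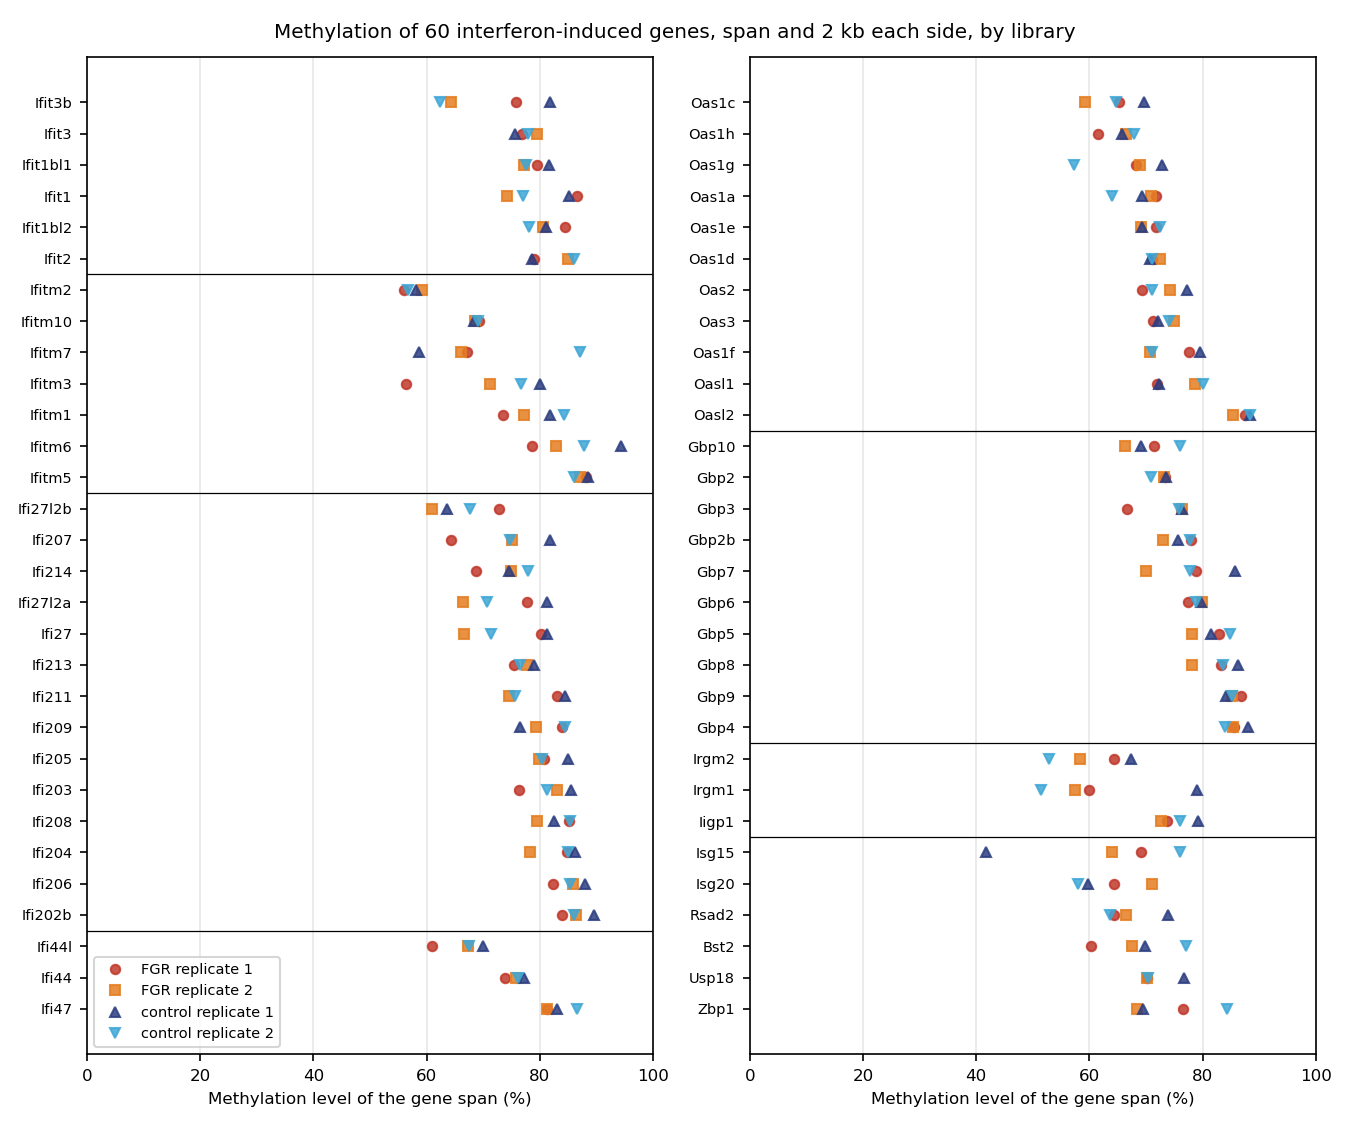
Methylation level of each member's span with 2 kb on each side (x axis, percent), 1 row per gene grouped by family, with FGR libraries as red circles and orange squares and control libraries as dark and light blue triangles. Most levels lie between 60% and 90%, and the FGR libraries lie below both controls in 12 genes and above both in 4.

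Ifit and Oas proteins act on viral RNA. The Ifit proteins bind its 5′ end, and the Oas enzymes make an oligoadenylate that switches on RNase L. The 6 Ifit spans had means of 71.1% to 82.1%, with differences of -1.97 to 2.87 points. Ifit1 had 86.5% and 74.2% in the FGR libraries and 85.2% and 77.0% in the control libraries. Ifit2 had 78.9% and 85% in the FGR libraries and 78.5% and 86.1% in the control libraries. Ifit3 had 76.9% and 79.4% in the FGR libraries and 75.6% and 77.9% in the control libraries. The replicates of 1 group differ more than the groups in these genes. Ifit3b, the least methylated, varied most, with 75.9% and 64.4% in the FGR libraries and 81.9% and 62.3% in the control libraries.

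The 11 Oas spans had means of 64.7% to 87.4%. Oasl2 was the most methylated and among the most uniform, with 87.5% and 85.3% in the FGR libraries and 88.3% and 88.4% in the control libraries, although its start was far lower. Oas1a, an active synthetase, had 71.7% and 70.9% in the FGR libraries and 69.2% and 64.0% in the control libraries, a difference of 4.69 points (adjusted p = 0.931). Both FGR libraries are the higher ones there. Oas2 had 69.2% and 74.2% in the FGR libraries and 77.2% and 71.0% in the control libraries, with overlap. Oas1c, the least methylated of the family, had 65.3% and 59.2% in the FGR libraries and 69.7% and 64.6% in the control libraries. Oas1g, with 68.2% and 68.9% in the FGR libraries, had controls far apart, at 72.7% and 57.3%.

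Ifitm proteins hinder virus entry, and their cluster on chromosome 7 held the largest span difference of any member. Ifitm3 (chr7:141007590-141012744 with its extension) had 56.3% and 71.2% in the FGR libraries and 80% and 76.7% in the control libraries. Its difference was -14.6 points with an adjusted p of 0.833, and -7.40 points on CpGs listed in both groups. The neighbouring Ifitm6 had 78.6% and 82.9% in the FGR libraries and 94.2% and 87.9% in the control libraries, a difference of -10.3 points and the smallest member p (0.0894 unadjusted, 0.802 adjusted). On shared CpGs the Ifitm6 groups overlap, with 87.8% and 75.6% in the FGR libraries and 83.3% and 88.5% in the control libraries, a difference of -4.25 points. On all listed CpGs the FGR libraries of Ifitm3 and Ifitm6 lie below the controls, as do those of Ifitm1 (73.4% and 77.2%, against 81.8% and 84.2%). On CpGs listed in both groups the Ifitm1 difference was -1.62 points. Ifitm2, in the same cluster, had 56.0% and 59.2% in the FGR libraries and 58.2% and 56.7% in the control libraries, with no gap. Ifitm5 had 88.1% and 87.1% in the FGR libraries and 88.4% and 85.9% in the control libraries. Over its 40 shared CpGs the family had 80.1% and 81.9% in the FGR libraries and 82.0% and 87.0% in the control libraries. Of these CpGs 18 lie in Ifitm10, farther along chromosome 7, and 8 in Ifitm7, on chromosome 16. Ifitm3 and Ifitm1 hold 1 each.

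The Ifi2 genes include 11 p200 genes in a chromosome 1 cluster, whose proteins bind DNA, and the Ifi27 genes of chromosome 12, whose small proteins sit in membranes. Their spans had means of 66.3% to 86.4%, and 12 of 14 had a lower mean in FGR, against 63.8% of all spans. Pooled, the family had 78.4% and 78.8% in the FGR libraries and 83.0% and 80.1% in the control libraries. Over its 172 shared CpGs it had 81.7% and 82.2% in the FGR libraries and 84.3% and 84.6% in the control libraries, a difference of -2.52 points. There 10 of 13 spans had a lower mean, against 54.2% of all spans. Ifi27 and Ifi27l2a overlap over 10057 bp and had the same values on shared CpGs, so both tallies count them as 2.

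Among single Ifi2 genes, Ifi207 had 64.3% and 75% in the FGR libraries and 81.7% and 74.7% in the control libraries. Its difference of -8.53 points (adjusted p = 0.905) rests on FGR replicate 1 and control replicate 1. Ifi204, a sensor of cytosolic DNA, had 84.8% and 78.3% in the FGR libraries and 86.2% and 84.9% in the control libraries. Ifi202b had 83.8% and 86.3% in the FGR libraries and 89.6% and 86.1% in the control libraries. Ifi27l2a, a common readout of interferon in microglia, had 77.8% and 66.4% in the FGR libraries and 81.2% and 70.6% in the control libraries. Its neighbour Ifi27l2b had 72.9% and 61.0% in the FGR libraries and 63.6% and 67.7% in the control libraries. Replicates of 1 group differ by over 10 points in both Ifi27l2 genes of the FGR mice.

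Zbp1, a sensor of Z-form nucleic acid that starts cell death, had 76.4% and 68.3% in the FGR libraries and 69.4% and 84.2% in the control libraries. In the 3 Ifi4 genes both FGR libraries were below both controls, as in 26.2% of all spans. Ifi44 had 73.9% and 75.7% in the FGR libraries and 77.2% and 76.1% in the control libraries, and Ifi44l 61.0% and 67.3% against 70% and 67.4%. Ifi47, an immunity-related GTPase, had 81.2% and 81.3% in the FGR libraries and 83.0% and 86.5% in the control libraries. The adjusted p-values of these 3 genes were 0.918 to 0.969. On shared CpGs Ifi44 and Ifi44l differed by -0.655 and -0.168 points and Ifi47 by 3.22 points, and the groups of all 3 overlap there.

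Guanylate-binding proteins and immunity-related GTPases act on the vacuoles of intracellular microbes. The 10 Gbp spans had means of 70.7% to 85.7%, and 8 had a lower mean in FGR, against 63.8% of all spans. Gbp7 had 78.7% and 70% in the FGR libraries and 85.7% and 77.8% in the control libraries, a difference of -7.33 points (adjusted p = 0.829). Gbp2 had 73.4% and 73.2% in the FGR libraries and 73.5% and 70.8% in the control libraries. Gbp3 had 66.6% and 76.3% in the FGR libraries and 76.4% and 75.8% in the control libraries. FGR replicate 1 alone stands apart in Gbp3, and the groups of Gbp7 and Gbp2 overlap. Gbp5 had 82.8% and 78.2% in the FGR libraries and 81.5% and 84.8% in the control libraries. Gbp4 and Gbp9 were the most methylated, at means near 85.7% and 85.2%, and Gbp10 the least, with 71.3% and 66.3% in the FGR libraries and 69.1% and 75.9% in the control libraries. On shared CpGs 8 of 10 Gbp spans had a higher mean in FGR, against 7605 of 16652 spans in all.

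Irgm1 and Irgm2 were the least methylated GTPase genes. Irgm1 had 59.9% and 57.4% over its span in the FGR libraries and 79.1% and 51.5% in the control libraries. Irgm2 had 64.3% and 58.3% in the FGR libraries and 67.4% and 52.8% in the control libraries. The 2 controls of each gene differ by more than the groups do. Iigp1, an effector GTPase that breaks vacuoles, had 73.6% and 72.6% in the FGR libraries and 79.2% and 75.9% in the control libraries, and its groups do not overlap (adjusted p = 0.929).

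The single genes lean both ways. Isg20 had 64.4% and 71.1% over its span in the FGR libraries and 59.7% and 58.1% in the control libraries, the largest positive member difference, 8.87 points (adjusted p = 0.838). On its 5 shared CpGs it had 52.0% and 51.9% in the FGR libraries and 50% and 68.8% in the control libraries. Bst2 had 60.2% and 67.4% in the FGR libraries and 69.8% and 77.0% in the control libraries, a difference of -9.59 points (adjusted p = 0.866). On its 3 shared CpGs the Bst2 groups overlap, with a difference of -1.57 points. Isg15, a ubiquitin-like modifier, had 69.1% and 63.9% in the FGR libraries, between the controls at 41.7% and 76.0%. Usp18 had 70.1% and 70.1% in the FGR libraries and 76.6% and 70.3% in the control libraries. Rsad2 had 64.3% and 66.5% in the FGR libraries and 73.8% and 63.6% in the control libraries.

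**Figure D5:**
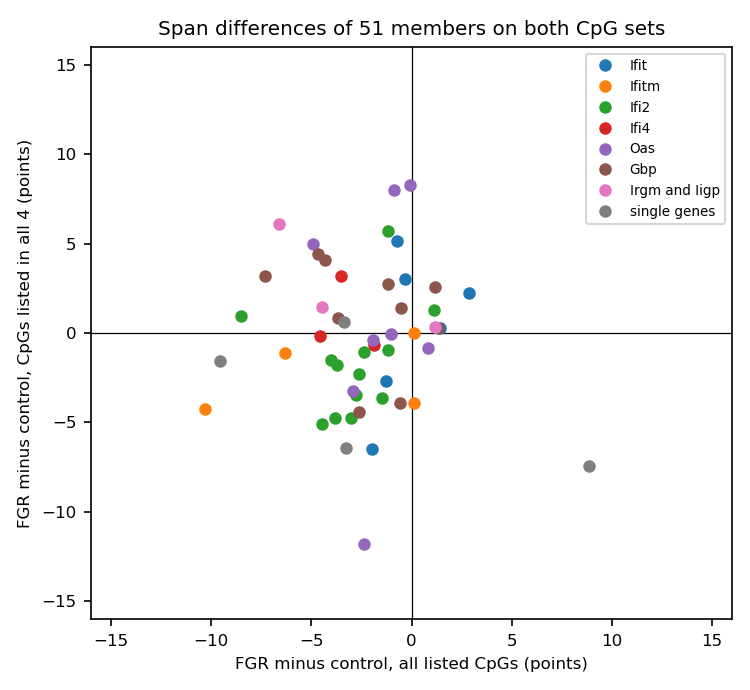
Difference in span methylation, FGR minus control in percentage points, on all listed CpGs (x axis) and on CpGs listed in all 4 libraries (y axis) for the 51 members measured on both; each point is a gene, coloured by family. Points in the upper left and lower right, such as Isg20 at 8.87 and -7.45 points, turn direction between the CpG sets.

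At finer scale, 240 of the 1171 tiles of 1 kb that touch a member span were measured. The fit called 0 of these 240 and 1 of 550538 tiles in all (0.000182%), and limma on log2 ratios called 0. At an unadjusted p under 0.05 there were 11 of 240, against 5.13% of all tiles, and with limma 18 of 240, against 4.65% of all. Of the 50 single CpGs of members with 10 reads in every library, 0 were called, as were 0 of 19589 in all (0%). At an unadjusted p under 0.05 there was 1 of 50, against 0.516% of all. With limma 0 were called, and 5 of 50 were under that level, against 4.88% of all. Most of the 50 lay in Ifit3, Ifit1bl1 and Ifit3b, the members with the most reads per CpG, so few other members are covered.

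The tile with the smallest p lay inside Ifi47, 8414 bp after its start, at chr11:49085001-49086000. It had 23.1% and 31.4% in the FGR libraries, against 78.8% and 84.6% in the control libraries (adjusted p = 0.206). The groups are far apart, but only 1 of its 7 listed CpGs was listed in both groups, and that CpG had 70% in FGR and 75% in control. A tile 529 bp before the start of Bst2, at chr8:71538001-71539000, had 28.6% and 41.5% in the FGR libraries, against 93.3% and 71.4% in the control libraries (adjusted p = 0.666). On its 5 CpGs listed in both groups it had 44.1% in FGR and 80.6% in control. A tile within Rsad2, 9452 bp after its start, had 31.0% and 66.7% in the FGR libraries, against 89.5% and 83.3% in the control libraries (adjusted p = 0.756), and 64.8% in FGR and 86.5% in control on 6 such CpGs. Unlike that of Ifi47, the gaps of Bst2 and Rsad2 remained over 20 points on matched CpGs. The matched values use part of the same reads and pool the libraries of a group, so they add no independent support. At Bst2 they rest on 34 FGR and 31 control reads.

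The tiles higher in FGR with the smallest p were 2 tiles in the overlapping spans of Ifit1bl1 and Ifit1bl2 and 1 tile in Ifitm10. At chr19:34630001-34631000 the levels were 97.1% and 93.3% in the FGR libraries and 78.7% and 45.5% in the control libraries, and 95.9% in FGR and 92.3% in control on 3 matched CpGs. At chr19:34617001-34618000 they were 89.5% and 87.3% in the FGR libraries and 69.8% and 69.2% in the control libraries, and 85.7% in FGR and 69.6% in control on 7 matched CpGs. The Ifitm10 tile had 4.76% and 7.69% in the FGR libraries and 0% in both control libraries. Adjusted p-values of the 3 tiles were 0.867, 0.939 and 0.972.

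Low tiles marked the starts and some sites away from them. Of the 240 member tiles 14 (5.83%) were below 30%, against 2.74% of all tiles. The lowest, at the start of Irgm1, had 1.89% and 1.12% in the FGR libraries and 0% in both control libraries. A tile 9024 bp after the Irgm2 start and outside the annotated gene had 0% and 0% in the FGR libraries and 3.70% and 2.70% in the control libraries. A tile in Ifit3, 4472 bp after its start, had 2.63% and 0% in the FGR libraries and 17.5% and 3.70% in the control libraries. Of 2 low tiles at Usp18, that with a mean of 2.86% lay outside the annotated gene. The other, with a mean of 5.29%, lay across the lower-coordinate end of the gene and mostly outside it. Apart from control replicate 1 in the Ifit3 tile and in the Usp18 tile across the gene end, these tiles were below 10% in every library.

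The genes around the effectors in the pathway were counted in the same fits from lists chosen with earlier results of these data known. Of 24 genes for interferon receptors and transducers 0 spans were called and 19 had a lower mean in FGR, against 63.8% of all spans. Their median was -3.40 points, against -1.26 over all genes. At an unadjusted p under 0.05, 3 of them were lower and 0 higher, against 6.39% of all spans in either direction. Ifnar1, a chain of the type I receptor, had 74.4% and 79.9% in the FGR libraries and 87.5% and 85.7% in the control libraries (adjusted p = 0.747). Irf7, the factor that amplifies type I interferon, had 54.5% and 48.4% in the FGR libraries and 80% and 66.5% in the control libraries (adjusted p = 0.747). Socs1, an inhibitor of JAK kinases, had 57.1% and 66.4% in the FGR libraries and 50% and 54.9% in the control libraries. Both FGR libraries lie below both controls at Ifnar1 and Irf7, as in 26.2% of all spans, and above them at Socs1, as in 10.4%. The 3 genes were picked for a small p, which favours such a separation.

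Of 17 nucleic acid sensors upstream of interferon 0 were called and 9 had a lower mean, against 63.8% of all spans. Their median was -0.439 points. At an unadjusted p under 0.05, 2 of them were lower and 0 higher, against 6.39% of all spans in either direction. Mavs had the smallest p of those higher in FGR, and its groups overlap. It had 76.6% and 80.7% in the FGR libraries and 76.8% and 68.0% in the control libraries. Dhx58, a cytosolic RNA sensor of the RIG-I family, had 38.5% and 54.6% in the FGR libraries and 73.1% and 66.5% in the control libraries (adjusted p = 0.747). Of 42 other interferon-induced genes 0 were called and 30 had a lower mean, against 63.8% of all spans. Their median was -1.94 points. At an unadjusted p under 0.05, 0 of them were lower and 1 higher, against 6.39% of all spans in either direction. That gene was Ly6e, with 48.3% and 63.4% in the FGR libraries and 41.7% and 36.0% in the control libraries (adjusted p = 0.780). Of 20 Toll-like receptors and adaptors 0 were called and 10 had a lower mean, against 63.8% of all spans, with a median of 0.0396 points. On shared CpGs the medians of these 4 lists were -0.729, 1.16, 0.167 and -1.23 points, in the same order. At windows and ends, 24 of 33 of the other interferon-induced genes had a lower mean, against 53.8% of all windows and ends. Their median there was -5.68 points, against -0.722 over all. The medians of the receptor, sensor and Toll-like lists at windows and ends were 0.311, -1.26 and 3.62 points.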

How the data were processed

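DNA methylation was measured by whole-genome bisulfite sequencing in 2 FGR and 2 control libraries; DNA had been sonicated and bisulfite converted, per the labels' protocols. Reads were handled with Trim Galore 0.6.5, Bismark and methylKit 1.28.0 on mm10, per the submitters' processing notes, with no Bismark version stated. The deposited tables give, per the file headers, a read count (coverage) and the percent of reads with C or T for each cytosine and strand. Methylated reads were recovered as coverage times percent and summed over both strands; the 0.1% of CpGs with the highest coverage in each library were left out.

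The members and gene lists were chosen with earlier results of these data known. Genes, starts and promoter sequences came from RefSeq tables of GRCm38.p6; all 93587 listed positions inside promoter sequences fell on a CG. Spans (2 kb extension), start windows (1000 bp each side; without a start, both ends from 1500 bp outside to 500 bp inside), 1 kb tiles (minimum in each library 3 CpGs and 10 reads) and single CpGs (10 reads) were tested over all autosomal features with a quasi-binomial model, two-sided, with overdispersion moderated by squeezeVar of limma 3.58.1 (R 4.3.3) and p-values adjusted by Benjamini-Hochberg. Calls needed an adjusted p under 0.05 and at least 10 points. Reads at neighbouring CpGs can be the same read, so Wilson intervals can be too narrow. Tried as alternatives were shared CpGs, 8 reads per CpG, stricter region minimums, no coverage limit, equal CpG weights, limma on log2 ratios with 0.5 added, no dispersion trend, a replicate block, other extensions and windows, and each library left out. Named with values were the well-known effectors of the report, the lowest and highest span and largest differences of each family, and the smallest p-values in each direction. No 2 libraries looked like copies: 7.06% to 9.54% of the CpGs listed in a pair had identical counts. Some marker genes are not reported here.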

Additional observations from a re-analysis of the deposited data

How the results depend on the processing

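No member was called in any of the alternatives run, and among the 40 named members the smallest adjusted p of a span in any setting was 0.530. Counts over all genes moved as follows: 1 span was called on CpGs listed in all 4 libraries, and of tiles 9 were called with at least 5 CpGs and 30 reads, 0 on shared CpGs, 0 with limma, 0 with the replicate block and 0 to 1 when each library was left out. The median member difference was -0.168 points for spans on shared CpGs, -10.05 for windows at 8 reads per CpG (4 members measured), and for tiles -0.228 at 5 CpGs and 30 reads and -1.86 to -0.704 over the left-out libraries. In the replicate block fit the spans, windows, tiles and CpGs of members called stayed at 0; the labels do not say that replicate numbers pair libraries, and same-numbered libraries' deviations correlated at 0.0200, so the block was not used. Of 544 alternative span values 60 turned direction, in 28 members, the cause not tested. On shared CpGs these were Gbp10 0.846, Gbp3 4.44, Gbp4 1.38, Gbp7 3.20, Ifi207 0.962, Ifi47 3.22, Ifit1 5.14, Ifit2 3.02, Iigp1 1.45, Irgm1 6.09, Isg20 -7.45, Oas1c 4.97 and Usp18 0.601 points. At 8 reads per CpG they were Gbp4 4.996, Gbp5 0.710, Ifit1 1.502, Oas2 1.97 and Zbp1 9.23. With equal CpG weights they were Ifit3b 1.56, Ifitm2 -2.42, Irgm2 -1.14 and Oas1a -0.609. Without extension they were Gbp4 0.364, Ifi27l2a 8.03, Ifit3b 4.02, Ifitm1 0.0992, Ifitm2 -5.15, Oas1a -10.1, Oas1g -3.84 and Oas2 1.06, and with 5 kb Gbp4 0.269, Ifi27l2b -1.28, Irgm2 -0.335 and Oas2 0.679. The Ifitm1 window was at -2.07 points with 2000 bp each side. Leaving out each library gave spans of Gbp2 -0.145 to 2.47, Gbp3 -9.50 to 0.198, Gbp4 -2.57 to 1.48, Ifi27l2a -9.50 to 1.85, Ifi27l2b -4.66 to 7.18, Ifit1 -6.89 to 5.40, Ifit2 -4.11 to 3.46, Ifit3b -11.8 to 7.81, Ifitm2 -1.43 to 1.70, Ifitm5 -0.799 to 1.67, Irgm1 -20.4 to 7.18, Irgm2 -6.12 to 8.46, Isg15 -9.51 to 24.8, Oas1g -4.17 to 11.3, Oas2 -5.50 to 0.737, Rsad2 -8.43 to 1.85 and Zbp1 -11.8 to 2.94 points, and windows of Ifi204 -1.13 to 10.9 and Ifitm1 -16.1 to 16.8. Comparisons on CpGs listed in at least 1 library of each group were added after seeing the data. Depth limits windows more than spans, with the Wilson half-widths given above.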

Other observations

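Starts that did not reach the minimum in every library gave further low values: Ifitm7, the chromosome 16 relative of the entry blockers, had 11.5% and 3.80% in the FGR libraries and 2.99% and 7.69% in the control libraries, and Gbp2 had 8.33% and 18.2% in the FGR libraries and 19.0% and 23.5% in the control libraries. Isg15 was uneven within 1 kb of its start, with 48.5% and 76.7% in the FGR libraries and 41.0% and 91.7% in the control libraries, although the 250 bases before the start had 2 of 44 reads methylated. Of the single CpGs, one in Ifit1bl1 at chr19:34591865 had 28.6% and 50% in the FGR libraries and 73.7% and 77.8% in the control libraries, from 14 to 24 reads each, with a p of 0.0477 and an adjusted p of 1 in the quasi-binomial fit. Ifit1bl1 is among the Ifit genes with raised coverage, whose read assignment is uncertain.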
